A study of Homo sapiens with 3 samples.

Results

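To examine where RUNX2 and its partner CBFB bound around genes of the Wnt pathway of bone, the peaks of both proteins within 25 kb of the gene bodies of 10 genes were collected. The genes were WNT5A, LRP5, LRP6, CTNNB1, TCF7, LEF1, AXIN2, DKK1, SOST and SFRP1, out of 20163 protein-coding genes annotated on chromosomes 1 to 22, X and Y. They were chosen by name for their part in the pathway, with earlier results of these data known. A total of 14 of the 9941 RUNX2 peaks and 30 of the 27246 CBFB peaks lay within reach.

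The peaks came from SAOS2 cells, an osteosarcoma line that lacks p53. No treatment was stated for these samples. They were mapped by ChIP-seq, in which chromatin is precipitated with an antibody and its DNA is sequenced. RUNX2 was precipitated with a custom antibody and CBFB with a commercial antibody. The series held 3 samples, which were 1 RUNX2 library, 1 CBFB library and 1 input library, and no replicates. Peak lists were used for the RUNX2 and the CBFB library, and the input was not analysed here. With 1 library of 1 cell line per antibody, no p-value was computed for any difference below, and all intervals are exact Clopper-Pearson 95% intervals that cover counting error only. Read counts are not part of the lists, so the depth is unknown.

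In the canonical Wnt pathway, secreted WNT proteins bind Frizzled receptors together with the co-receptors LRP5 and LRP6. This binding stops the destruction complex, of which AXIN2 is a scaffold, from degrading beta-catenin, the product of CTNNB1. Beta-catenin then enters the nucleus and binds the DNA-binding proteins TCF7 and LEF1. WNT5A acts mostly through beta-catenin-independent routes. DKK1 and SOST (sclerostin) are secreted proteins that block LRP5 and LRP6, and SFRP1 is a secreted protein that captures WNT ligands. In bone, the pathway is known for driving bone formation by osteoblasts, and loss of SOST gives high bone mass. RUNX2 is the transcription factor that osteoblasts need for their formation, and CBFB is a partner that binds RUNX proteins and strengthens their DNA binding.

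Of the 10 genes, 7 had at least 1 RUNX2 peak within 25 kb, a share of 70% (34.8 to 93.3), against 36% of all protein-coding genes. The genes with RUNX2 peaks were LRP5, LRP6, CTNNB1, TCF7, LEF1, AXIN2 and SOST. CBFB peaks were found at the same 7 genes, against 62.2% of all protein-coding genes. WNT5A, DKK1 and SFRP1 had no peak of either list within reach, as did 36.9% of all protein-coding genes. Among the protein-coding genes with a CBFB peak, 56.4% also had a RUNX2 peak, and here it was 7 of 7. None of the 10 genes had CBFB peaks alone, which 27.1% of all protein-coding genes had. The interval of the RUNX2 share is wide, and its lower bound lies below the share of all genes. Longer genes had peaks more often. In 5 classes of protein-coding genes of equal size by length, the share with a RUNX2 peak rose from 26.1% in the shortest to 49.0% in the longest, and the share with a CBFB peak from 47.4% to 74.0%. LRP5, LRP6 and LEF1 belong to the longest class, DKK1 and SOST to the shortest.

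**Figure D1:**
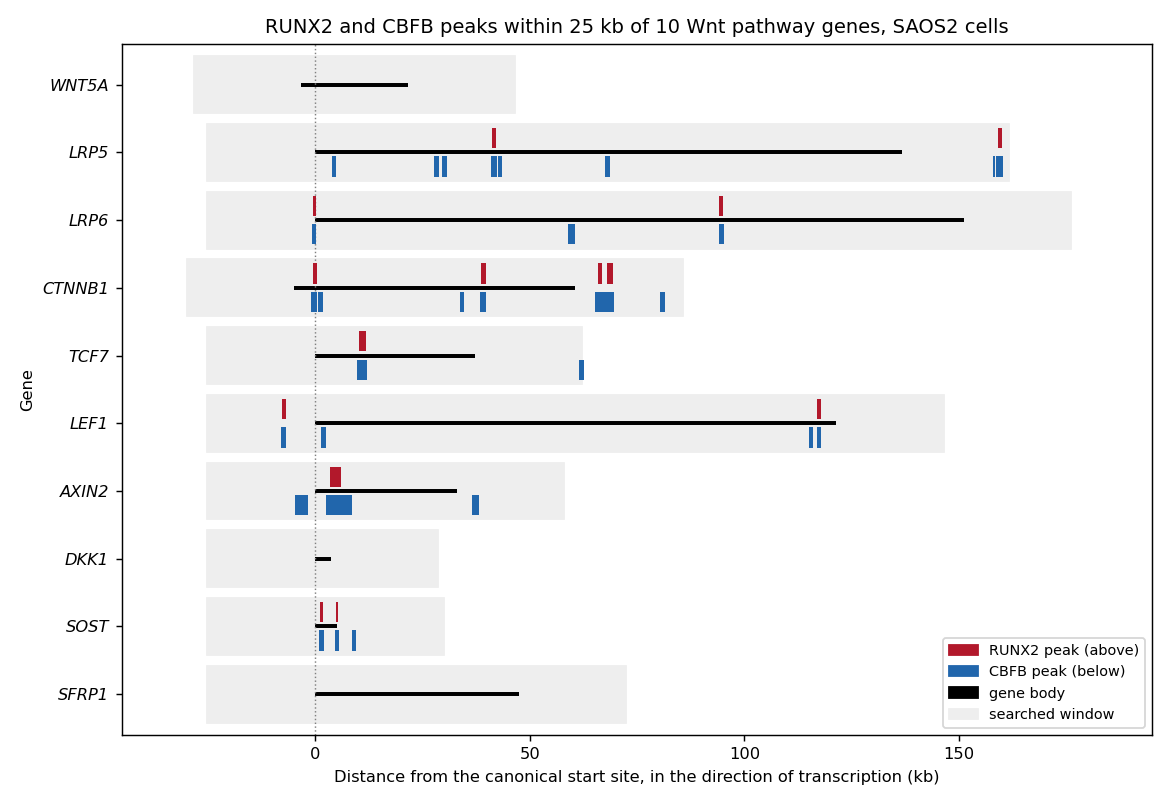
Each row is 1 gene, drawn to scale along the direction of transcription in kb from the canonical start site, with the gene body as a black line, the searched window in grey, RUNX2 peaks in red above and CBFB peaks in blue below the line. The 14 RUNX2 peaks each sit over a CBFB peak, and the rows of WNT5A, DKK1 and SFRP1 are empty.

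Each of the 14 RUNX2 peaks shared at least 1 bp with a CBFB peak (100%, interval 76.8 to 100), where 94.2% of the whole RUNX2 list did so. The study reported a lower overlap for as many RUNX2 peaks, and did not state its rule for overlap. In 13 of the 14, the RUNX2 peak lay wholly inside the CBFB peak. The midpoints were apart by 1 to 864 bp, with a median of 75.5 bp. The longest distance belonged to AXIN2, where the CBFB peak was 6151 bp wide. Conversely, 14 of the 30 CBFB peaks (46.7%, interval 28.3 to 65.7) shared sequence with RUNX2, against 33.8% of the CBFB list. The other 16 CBFB peaks stood alone.

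Scores are given as the deposited peak score of MACS, the peak caller of the study. They were read here as -10 times log10 of the peak's p-value, so they grow with depth and are compared only within a list. The scores of the 14 RUNX2 peaks ran from 56.08 to 260.24 with a median of 87.5, next to a median of 84.1 for the RUNX2 list. A total of 7 peaks lay above the list's median, and 7 below it. In the CBFB list, whose median was 121, the 14 peaks that overlapped RUNX2 had scores from 83.65 to 1184.88 with a median of 417. The 16 CBFB peaks that stood alone had scores from 54.01 to 227.61 with a median of 109. For 13 of the 14 pairs, the CBFB peak stood higher in its list than the RUNX2 peak stood in the RUNX2 list, as was the case for 84.8% of all RUNX2 peaks that overlapped CBFB. The exception was the intronic LEF1 peak, where both lay near the same place (94.4% and 94.2% of the list at or below). Across the 14 pairs, Spearman's rho of the scores was 0.815. This describes peaks that share libraries, and some share a gene. No rho over all overlapping pairs of the lists was set beside it. The CBFB medians of 417 and 109 likewise stand without those of all overlapping and lone CBFB peaks.

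**Figure D2:**
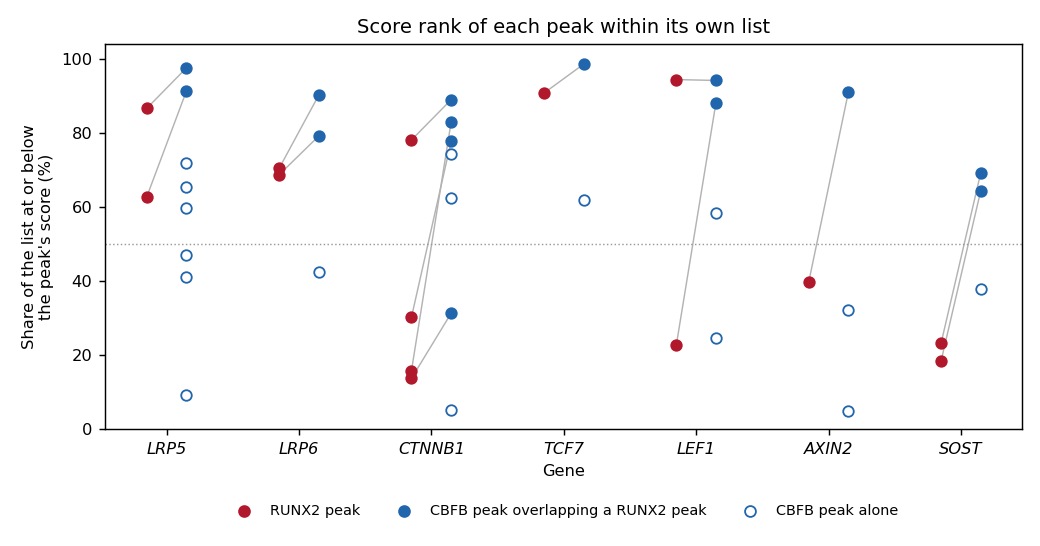
Each point is 1 peak of the 7 genes with peaks, placed by the share of its own list (%) that scored at or below it. Red is RUNX2, filled blue is CBFB overlapping RUNX2, open blue is CBFB alone, and grey lines join overlapping peaks. The grey lines rise in 13 of 14 pairs, and the red points of SOST lie at 18.4% and 23.2%.

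The co-receptors receive the signal at the cell surface. LRP5 (chromosome 11, 68080059 to 68216743, plus strand) had 8 CBFB peaks, the largest number among the 10 genes, and 2 RUNX2 peaks. The RUNX2 peak of the score 101.57 (68121186 to 68122269) had its midpoint in intron 2, 41.7 kb downstream of the start, above or level with 62.7% of the RUNX2 list. It overlapped a CBFB peak of the score 496.44. A second RUNX2 peak (68239201 to 68240062) scored 179.17 and was above or level with 86.6% of the list, but lay 22.9 kb past the end of LRP5. Its midpoint fell inside PPP6R3, a regulatory subunit gene of protein phosphatase 6, 11.4 kb from the nearest PPP6R3 start, so that the strongest RUNX2 peak near LRP5 was nearer to another gene. The 6 CBFB peaks without RUNX2 had scores from 57.57 to 211.66. The first of them lay in intron 1, 4.45 kb from the start (68084009 to 68085012, score 100.67), where no RUNX2 peak was called.

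RUNX proteins bind the core sequence TGTGGT, which reads ACCACA on the other strand. Both peaks near LRP5 had a core close to the midpoint, at 14 bp in the intronic and at 10 bp in the downstream peak. The midpoint of a peak is not its summit, which was not used here. The windows below show GRCh37, plus strand, from 5′ to 3′, with cores in capitals. The second is shown because it held 3 cores, of which 2 followed each other without a gap.
LRP5 intron 2, chr11:68121687-68121767: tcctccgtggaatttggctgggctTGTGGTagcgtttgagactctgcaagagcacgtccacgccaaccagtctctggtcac
LRP5 downstream, chr11:68239501-68239761: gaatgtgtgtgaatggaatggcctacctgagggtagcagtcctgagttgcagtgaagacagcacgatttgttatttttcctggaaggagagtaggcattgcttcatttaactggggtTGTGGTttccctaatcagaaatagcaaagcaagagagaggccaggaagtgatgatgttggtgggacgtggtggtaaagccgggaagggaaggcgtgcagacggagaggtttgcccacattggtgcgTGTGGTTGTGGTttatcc

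LRP6 (chromosome 12, 12268959 to 12419978, minus strand) carried 2 RUNX2 and 3 CBFB peaks. The RUNX2 peak of the score 113.07 (12419757 to 12420503) covered the start of the gene, with its midpoint 152 bp upstream, and overlapped a CBFB peak of the score 269.54. Another peak, with a score of 116.31 (12324903 to 12325822), lay in intron 7, 94.6 kb downstream of the start, and overlapped a CBFB peak of the score 461.09. BCL2L14, a BCL2 family gene on the other strand, was annotated across the same position. The RUNX2 peaks were above or level with 68.7% and 70.4% of the list, and so differed little in rank. A CBFB peak of the score 103.72 in intron 2 (12359501 to 12361072) stood alone.

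CTNNB1 (chromosome 3, 41236232 to 41301587, plus strand), which encodes beta-catenin, had 4 RUNX2 peaks, the most of the 10 genes, and 7 CBFB peaks. Only 1.32% of all protein-coding genes had more RUNX2 peaks within 25 kb. The RUNX2 peak of the score 137.61 (41240576 to 41241385) covered the canonical start, with its midpoint 16 bp upstream, and was above or level with 78.1% of the list. It overlapped a CBFB peak of the score 426.92. The other RUNX2 peaks at CTNNB1 were weak. A peak of the score 56.08 lay in intron 14 (41279694 to 41280910), above or level with 13.8% of the list, and overlapped the weakest CBFB peak that any of the 14 had, with a score of 83.65. The remaining peaks had scores of 66.02 (41306903 to 41307882) and 57.23 (41309047 to 41310514). Their midpoints lay 5.81 kb and 8.19 kb past the end of CTNNB1, inside ULK4, a kinase-like gene on the opposite strand, but CTNNB1 had the nearest protein-coding start. They overlapped CBFB peaks of the scores 257.05 and 317.05, so the downstream pair was low in the RUNX2 list and in the upper part of the CBFB list. CBFB alone was found at 3 sites, in intron 1 (score 162.15), over coding exon 9 (score 54.18) and 20.4 kb past the gene end (score 227.61).

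The start peak of CTNNB1 had a core 256 bp from its midpoint and none within 100 bp. The peak in intron 14 had none. The first of the downstream peaks is shown because it held 2 cores and an AP-1 motif (TGANTCA) within 100 bp of the midpoint. The AP-1 motif and the second core were 4 bp apart. N was allowed to be any base and is A here, a looser match than the usual AP-1 sites TGACTCA and TGAGTCA. Cores and the AP-1 motif are in capitals.
CTNNB1 downstream, chr3:41307292-41307492: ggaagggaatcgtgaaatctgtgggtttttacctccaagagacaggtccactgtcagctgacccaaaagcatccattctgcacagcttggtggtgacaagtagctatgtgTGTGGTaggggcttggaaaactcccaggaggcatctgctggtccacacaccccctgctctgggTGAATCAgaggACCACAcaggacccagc

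Among the nuclear factors, TCF7 (chromosome 5, 133450372 to 133487556, plus strand) carried 1 RUNX2 and 2 CBFB peaks. The RUNX2 peak had a score of 212.46 (133460573 to 133462334) and was above or level with 90.7% of the list. Its midpoint lay in intron 3 of the canonical transcript, 11.1 kb from that start and 2.14 kb from the nearest annotated start of TCF7. The overlapping CBFB peak had a score of 1184.88, the highest of the 30, above or level with 98.5% of the CBFB list. The second CBFB peak (133511789 to 133512960, score 160.47) was just within reach and lay 36 bp from a start of SKP1, a ubiquitin ligase subunit. Although it had the second highest score of the 14, the RUNX2 peak in TCF7 held no copy of the core in 1762 bp, no AP-1 motif and no TCF/LEF motif (CTTTGAT or ATCAAAG). Its central window is shown for that reason.
TCF7 intron 3, chr5:133461353-133461553: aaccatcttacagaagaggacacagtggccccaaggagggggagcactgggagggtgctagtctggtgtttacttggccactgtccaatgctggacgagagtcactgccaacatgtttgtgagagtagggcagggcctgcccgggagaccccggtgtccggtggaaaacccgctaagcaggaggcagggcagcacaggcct

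LEF1 (chromosome 4, 108968701 to 109090112, minus strand) carried 2 RUNX2 and 4 CBFB peaks. The RUNX2 peak of the score 260.24 (108972223 to 108973110) was the strongest of the 14, above or level with 94.4% of the list, and overlapped a CBFB peak of the score 625.85. It lay in intron 11, 117 kb downstream of the start and close to the end of the gene. The nearest protein-coding start, at 47 kb, was that of HADH, which encodes a mitochondrial dehydrogenase. Another annotated start of LEF1, of a transcript not classed as protein-coding, was nearer, at 19.4 kb. The upstream peak, with a score of 61.04 (109096877 to 109097710), was weak, above or level with 22.7% of the list, and its midpoint lay 7.18 kb upstream of LEF1 in the antisense transcript LEF1-AS1. It overlapped a CBFB peak of the score 408.06. Within 5 kb of the canonical LEF1 start, only a CBFB peak was called (109087549 to 109088619, score 74.53), in intron 1.

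The strongest peak held 1 RUNX core and 1 TCF/LEF motif, each 64 bp from the midpoint on opposite sides. Of the 14 RUNX2 peaks it was the only one with a TCF/LEF motif within 100 bp, and 2.76% of the RUNX2 list had one, against 2.53% of flanking windows. Core and TCF/LEF motif are in capitals.
LEF1 intron 11, chr4:108972566-108972766: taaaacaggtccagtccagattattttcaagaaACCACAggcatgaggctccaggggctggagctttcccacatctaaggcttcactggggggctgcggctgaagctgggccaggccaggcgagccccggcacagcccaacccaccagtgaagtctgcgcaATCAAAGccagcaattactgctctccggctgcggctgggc

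AXIN2 (chromosome 17, 63524681 to 63557766, minus strand), a scaffold of the destruction complex and itself a known target of beta-catenin, had 1 RUNX2 and 3 CBFB peaks. The RUNX2 peak had a score of 73.4 (63551735 to 63554278), above or level with 39.7% of the list. It was the widest of the 14 with 2544 bp. Its midpoint lay in intron 2, 4.76 kb downstream of the start, inside a CBFB peak of the score 484.24 (63549067 to 63555217). CBFB alone was found 3.12 kb upstream (score 84.97) and 4.29 kb past the gene end (score 54.01). The RUNX2 peak held 5 cores in its width, more than any other of the 14, and the nearest lay 6 bp from the midpoint.
AXIN2 intron 2, chr17:63552966-63553046: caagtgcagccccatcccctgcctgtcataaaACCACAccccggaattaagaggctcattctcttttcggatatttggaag

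Of the inhibitors, only SOST (chromosome 17, 41831106 to 41836159, minus strand) had peaks. The gene is 5.05 kb long and had 2 RUNX2 and 3 CBFB peaks. Of the protein-coding genes in the shortest length class, to which it belongs, 97.5% had 2 or fewer RUNX2 peaks. In the longest class, 85.4% had 2 or fewer, the number found at LRP5, LRP6 and LEF1. Both RUNX2 peaks were weak. The peak of the score 58.64 (41834192 to 41834938) lay in intron 1, 1.59 kb downstream of the start, above or level with 18.4% of the list. The peak of the score 61.39 (41830749 to 41831308) had its midpoint 78 bp past the end of the gene, above or level with 23.2% of the list. They overlapped CBFB peaks of the scores 170.84 and 195.15, and the midpoints of the peaks at the gene end differed by 1 bp. A further CBFB peak lay 3.99 kb past the gene end (score 94.66). SOST had the nearest protein-coding start for each of these peaks. Both RUNX2 peaks are shown because they were low in score and still held 2 cores and 1 core within 100 bp of the midpoint.
SOST end, chr17:41830953-41831103: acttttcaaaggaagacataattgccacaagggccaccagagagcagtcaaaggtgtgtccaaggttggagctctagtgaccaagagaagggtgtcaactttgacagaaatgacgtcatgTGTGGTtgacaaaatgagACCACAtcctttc
SOST intron 1, chr17:41834485-41834645: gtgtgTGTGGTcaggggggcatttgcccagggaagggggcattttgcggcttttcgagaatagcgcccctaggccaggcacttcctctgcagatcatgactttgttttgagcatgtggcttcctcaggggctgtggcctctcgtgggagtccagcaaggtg

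DKK1, SFRP1 and WNT5A were the genes without peaks. DKK1 (chromosome 10, 54074041 to 54077802, plus strand) had its nearest CBFB peak 25.6 kb away, just out of reach, with a score of 61.32 (54103377 to 54104292). The nearest peak of RUNX2 was 321 kb away. WNT5A (chromosome 3, 55499743 to 55524567, minus strand) had its nearest CBFB peak 52.5 kb upstream (55577058 to 55578171, score 270.84), and its nearest RUNX2 peak was 305 kb away. SFRP1 (chromosome 8, 41119481 to 41166992, minus strand) lay in a long stretch without peaks. From 38795357 to 41347331, 2.55 Mb with 11 whole protein-coding genes held no CBFB peak, the 9th longest of the 959 such stretches between peaks of that chromosome. The RUNX2 stretch was 2.84 Mb. The nearest RUNX2 peak (41386265 to 41386878, score 54.06) was 219 kb upstream of SFRP1, at the start of GINS4, a replication factor. Such distances were common in the RUNX2 list. Of all protein-coding genes, 25.5% were at least as far from a RUNX2 peak as SFRP1, 19.6% as far as WNT5A and 18.7% as far as DKK1. For CBFB, 12.0% were at least as far as SFRP1.

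The activators were then set against the inhibitors. LRP5, LRP6, CTNNB1, TCF7, LEF1, AXIN2 and WNT5A were counted as promoting genes, and DKK1, SOST and SFRP1 as inhibitors. However, AXIN2 limits the signal, and WNT5A acts mostly through beta-catenin-independent routes. Only the place of AXIN2 was varied in the alternatives. RUNX2 peaks per gene were 2, 2, 4, 1, 2, 1 and 0 in the promoting genes, a mean of 1.71 ± 1.25 (SD, n = 7 genes). The inhibitors had 0, 2 and 0, a mean of 0.667 ± 1.15 (SD, n = 3 genes), next to 0.614 for all protein-coding genes. The ranges of the groups overlapped. SOST had as many RUNX2 peaks as LRP5, LRP6 or LEF1, and WNT5A had as few as DKK1. CBFB peaks per gene were 3.86 ± 2.79 (SD, n = 7 genes) in the promoting genes and 1 ± 1.73 (SD, n = 3 genes) in the inhibitors. The promoting genes were longer, with a mean gene body of 81.4 kb against 18.8 kb, so that a larger window was searched around them. Per 100 kb of searched window, there were 1.30 RUNX2 peaks for the promoting genes and 0.969 for the inhibitors, and 0.519 for all protein-coding genes. For CBFB the values were 2.94, 1.45 and 1.40. The genes are not replicates, and the inhibitors' values rest on SOST alone.

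The genes also differed in the rank of their peaks. When only RUNX2 peaks at or above the list's median score were kept, 7 peaks remained at LRP5, LRP6, CTNNB1, TCF7 and LEF1. AXIN2 and SOST kept none. The highest RUNX2 peak was above or level with 94.4% of the list at LEF1, 90.7% at TCF7, 86.6% at LRP5, 78.1% at CTNNB1, 70.4% at LRP6, 39.7% at AXIN2 and 23.2% at SOST. The peak behind the LRP5 value lay past the gene end inside PPP6R3, and the peak inside LRP5 stood at 62.7%. Each value is the highest of unequal numbers of peaks, from 1 at TCF7 and AXIN2 to 4 at CTNNB1.

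How many members had a RUNX2 peak did not change with the reach. With reaches of 0, 5, 25, 50, 100 and 200 kb, RUNX2 peaks were found at 7 of the 10 genes each time. Over the same reaches the share of all protein-coding genes rose from 21.2% to 72.6%. The interval of the members' share, 34.8 to 93.3, lay above the share of all genes at 0 and 5 kb and covered it from 25 kb on. The share of all genes at 0 and 5 kb was not split by gene length. Longer genes had peaks more often at 25 kb, and LRP5, LRP6 and LEF1 are in the longest class. All 7 genes with RUNX2 peaks had 1 that touched the gene body, and these were 10 of the 14 peaks. The nearest protein-coding start was that of the member itself for 12 of the 14 RUNX2 peaks and 25 of the 30 CBFB peaks. The study's distances were applied to every annotated transcript of the gene. By these, 6 RUNX2 peaks lay within 5 kb of a start (promoter), 3 in the rest of the gene body and 5 outside it. The 6 include the peak in intron 14 of CTNNB1 and the peak in TCF7. These lay 39.3 kb and 11.1 kb from the canonical start of their gene.

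The RUNX core was found within 100 bp of the midpoint in 7 of the 14 RUNX2 peaks, a share of 50% (23.0 to 77.0). The share was 43.2% in the RUNX2 list and 13.6% in windows of the same length centred 2 kb away on each side, where these touched no peak. Anywhere in the peak, 11 of the 14 held a core, against 78.1% of the list. The longer form TGTGGTT, which contains the core, was found within 100 bp in 4 of 14, against 23.4% of the list and 3.31% of flanks. The peaks without any core were those at the LRP6 start, in TCF7 and in intron 14 of CTNNB1. AP-1 motifs (TGANTCA with any base at N) lay within 100 bp in 4 of 14 (28.6%, interval 8.39 to 58.1), at CTNNB1, LRP6 and SOST. The share was 13.1% in the list, which the interval covers, and 5.63% in flanks. The CTNNB1 peaks among them were the neighbouring downstream pair. Among CBFB peaks, 9 of the 16 that stood alone and 5 of the 14 that overlapped RUNX2 held a core within 100 bp of the midpoint of the CBFB peak. In the CBFB list these shares were 41.6% and 41.8%. All searches covered both strands.

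**Figure D3:**
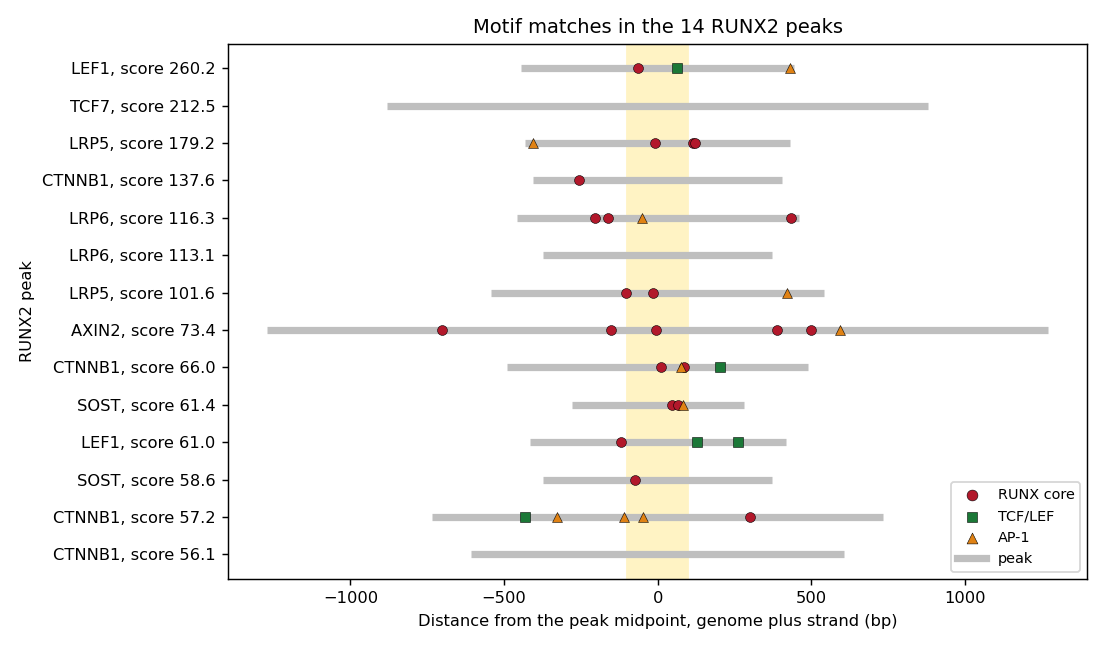
Each row is 1 of the 14 RUNX2 peaks, ordered by score, with distance from the midpoint in bp on the horizontal axis, the peak as a grey bar and the 100 bp to either side shaded. Circles are RUNX cores, squares TCF/LEF motifs and triangles AP-1 motifs. The rows of TCF7, the LRP6 start (score 113.07) and the lowest CTNNB1 peak (score 56.08) hold no symbol, and the AXIN2 row holds 5 circles.

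A wider list of 75 other Wnt pathway genes, also chosen with earlier results of these data known, was counted by role. RUNX2 peaks lay within 25 kb of 44 of them, a share of 58.7% (46.7 to 69.9), and CBFB peaks within 25 kb of 55, a share of 73.3% (61.9 to 82.9), against 36% and 62.2% of all protein-coding genes. Some of these genes are neighbours and share peaks, so that the 102 pairs of gene and RUNX2 peak came from 95 peaks, of which 94 overlapped CBFB. Per 100 kb of window there were 1.13 RUNX2 peaks for the wider list. Other secreted inhibitors and their co-receptors had a RUNX2 peak in 5 of 12 genes, a share of 41.7% (15.2 to 72.3), the lowest of the 8 roles, with an interval that covers the share of all genes. DKK2, DKK3, SFRP5, FRZB and SOSTDC1 had no peak of either list, as was the case for 36.9% of all protein-coding genes. NOTUM, of the same role, had 4 RUNX2 and 7 CBFB peaks. The ligands WNT2, WNT3, WNT7A, WNT8A, WNT8B and WNT9B and the receptors FZD2, FZD3, FZD4, FZD9 and FZD10 had no peak either. Nor did RSPO1, RSPO4, CSNK1A1 and CSNK1E. A RUNX2 peak was found at 10 of 18 ligands, 8 of 14 receptors and 6 of 9 genes of the R-spondin module. For the destruction complex the count was 5 of 8 and for Dishevelled proteins and their inhibitors 3 of 5. For nuclear partners it was 5 of 7 and for ligand secretion 2 of 2. The counting intervals of these shares overlapped each other.

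**Figure D4:**
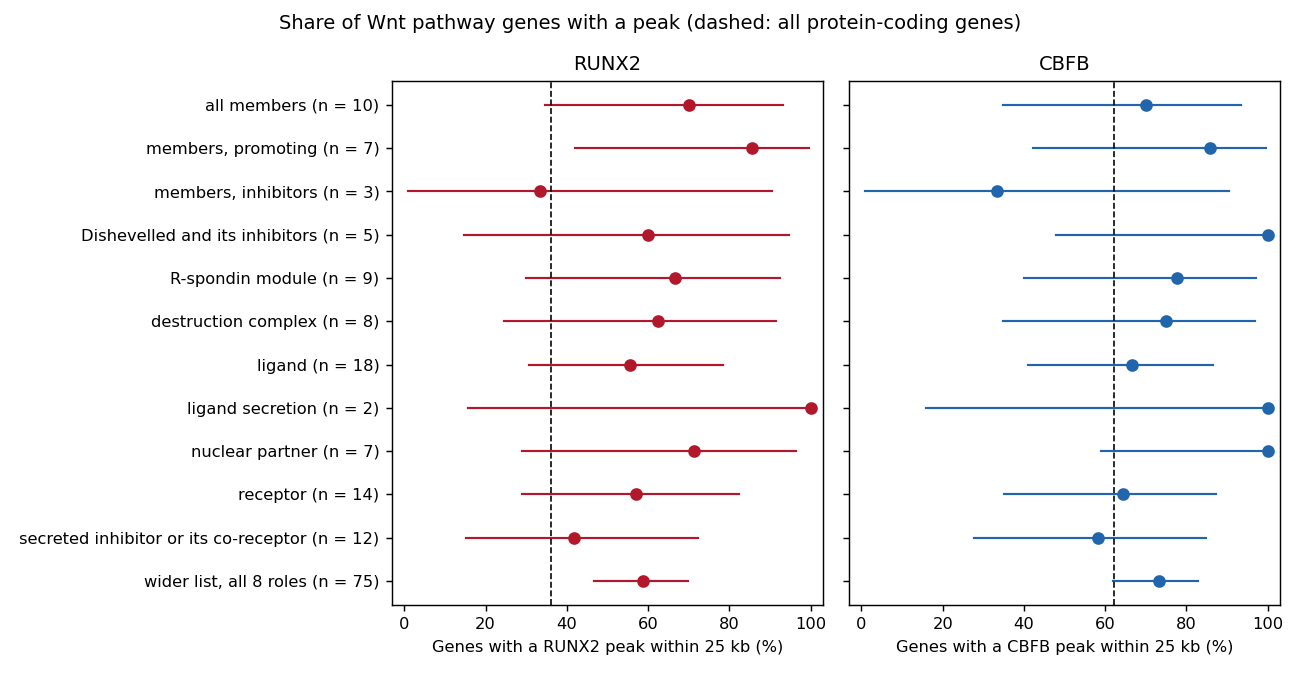
Points give the share of genes (%) with a RUNX2 (left) or CBFB (right) peak within 25 kb for the 10 genes, their promoting and inhibitor groups and 8 roles of the wider list, with exact 95% intervals as lines. The dashed lines mark all protein-coding genes at 36% and 62.2%. The RUNX2 interval of the wider list as a whole (46.7 to 69.9) and that of the promoting genes (42.1 to 99.6) lie to the right of the dashed line, which is not adjusted for gene length, and both hold the 49.0% of the longest length class.

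For each role, the gene with the highest RUNX2 peak within reach was looked at. The nearest start was that of another gene for PORCN, DVL1 and WNT1 and that of the gene itself for RSPO2, AXIN1, BCL9, ROR2 and SFRP4. PORCN, which modifies WNT proteins for secretion, had the highest (chromosome X, 48345411 to 48347542, score 782.99), at -20.9 kb from its start and nearer to the start of FTSJ1. The highest near DVL1, a Dishevelled gene, had a score of 650.32 (chromosome 1, 1306154 to 1307784) and lay 3.57 kb from the start of AURKAIP1. The highest near WNT1 (chromosome 12, 49365743 to 49367181, score 304.11) lay 944 bp from the start of the ligand gene WNT10B, which shares this peak and the role. Inside their own genes were the peaks of RSPO2, an R-spondin (chromosome 8, 109083098 to 109084191, score 502.94, intron 2), ROR2, a WNT5A receptor (chromosome 9, 94558500 to 94561208, score 306.47, intron 1), AXIN1 (chromosome 16, 377100 to 378305, score 257.6, intron 2) and BCL9, a beta-catenin partner (chromosome 1, 147015961 to 147017813, score 224.12, intron 1). SFRP4, a relative of SFRP1, had its highest RUNX2 peak 15.4 kb from its nearest annotated start (chromosome 7, 38080254 to 38081104, score 181.18). ROR2 had 6 RUNX2 and 13 CBFB peaks, while WNT5A, its ligand, had none within reach. The counts are not like for like, as ROR2 is 387 kb long and WNT5A 24.8 kb.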

How the data were processed

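Peaks had been called by the authors on each library with MACS 1.4.1, with CASAVA 1.8.2 also named in the submitters' processing notes and hg19 as the build. The deposited score of each peak was read as -10 times log10 of its p-value, from the file layout and values of 50 to 3100. The calling limit, depth and use of the input were not given in the sources used here. Starts were moved to counting from 1. Genes were those of GENCODE release 44 on GRCh37, which is the sequence of hg19, with gene bodies spanning all transcripts. A peak was assigned to each gene within 25 kb, and overlap meant at least 1 bp. Positions in exons and introns and distances from the start refer to the Ensembl canonical transcript. The nearest protein-coding start was sought among protein-coding transcripts only. Peaks outside chromosomes 1 to 22, X and Y (13 RUNX2 and 42 CBFB) were left out of steps using annotation or sequence. Motifs were searched in GRCh37 on both strands. Counting and motif search were tested on simulated data. The genes named were all 10 members, the gene with the highest RUNX2 peak in each role of the wider list, and genes in or nearest to a named peak. Genes of the wider list without peaks, NOTUM and WNT10B were named after their values were seen. The members and lists were chosen with earlier results of these data known. Alternatives covered reach, gene body, score limit, nearest start, overlap, motif and the place of AXIN2. Groups came from the sample titles. Python 3.11.15, numpy 2.4.6, pandas 2.3.3, scipy 1.17.1, pysam 0.24.0 and matplotlib 3.10.9 were used.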

Additional observations from a re-analysis of the deposited data

How the results depend on the processing

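Of 46 recomputed values, 37 stayed close to the reported one (within 1.5 times for counts, differences and ranks, or within the counting interval for shares) and 9 moved. The number of the 10 genes with a RUNX2 peak was 7 in all alternatives except for RUNX2 peaks at or above the median score, where it was 5. The number of RUNX2 peaks, 14, fell to 7 with that score limit and rose to 24 with a reach of 100 kb. The number of CBFB peaks, 30, rose to 57 with a reach of 100 kb and fell to 16 when only the 9941 top CBFB peaks were kept, and these still overlapped 13 of the 14 RUNX2 peaks. The difference of promoting genes and inhibitors in RUNX2 peaks per gene, 1.05, kept its sign throughout. It was 0.476 with a reach of 5 kb and 0.336 as peaks per 100 kb of window pooled over each group, which is another unit. The share of RUNX2 peaks with a core, 50%, was 78.6% when the whole peak was searched, as more sequence is read. With only peaks for which the member had the nearest start, ranked without the 13 RUNX2 peaks outside chromosomes 1 to 22, X and Y, the best RUNX2 rank moved from 1331 to 3703 for LRP5 and from 558 to 7678 for LEF1. The stronger peaks, which lay nearer to protein-coding starts of PPP6R3 and HADH, were not counted there. Only starts of protein-coding transcripts were used for this. With all annotated transcripts, the strongest LEF1 peak lay 19.4 kb from a start of LEF1, nearer than the HADH start at 47 kb. In the full list, the peaks that remained ranked 3707 and 7688. No paired analysis was possible because there was only 1 library for each protein. Depth and antibody cannot be told apart from any difference between the lists.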
